A study of Rattus norvegicus with 15 samples.

Results

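The genes described here are 5 major components of the stromal extracellular matrix, taken from a count table of 34480 rows by their Ensembl rat identifiers: Col1a1 (ENSRNOG00000003897), Col1a2 (ENSRNOG00000011292), Col3a1 (ENSRNOG00000003357), Fn1 (ENSRNOG00000014288) and Sparc (ENSRNOG00000012840). All 5 were among the 15543 rows with enough reads to be tested. The set was chosen by gene identity with measured levels and fold changes of these same libraries already known. Which of those values counted is not recorded, so the levels and tests describe these libraries and are not independent support for a pattern. RNA was sequenced from Sprague-Dawley rat (outbred) bone marrow mesenchymal stem cells that had been grown to confluence after several passages. Adi_ASA cells were kept in adipogenic differentiation medium with aspirin (acetylsalicylic acid, a cyclooxygenase inhibitor), Adi cells in that medium without aspirin, Ost_ASA cells in osteogenic differentiation medium with aspirin, Ost cells in that medium without aspirin, and Control cells were untreated. Each of the 5 groups had 3 libraries, and no library of untreated cells with aspirin was analysed here. No source used here gives the aspirin dose, the time in culture or the number of animals, so a difference from Control may include time in culture, and the spread between libraries may be technical.

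Type I collagen, the main protein of tendon, skin and bone matrix, is a triple helix built from the chains that Col1a1 and Col1a2 encode, with more alpha 1 than alpha 2 chains in most tissues. Type III collagen, encoded by Col3a1, is a helix of identical chains that forms thin fibrils together with type I collagen in soft tissue. Fibronectin, encoded by Fn1, is a secreted glycoprotein that cells assemble into fibrils through integrins and on which collagen is laid down. Sparc, also called osteonectin, is a collagen-binding protein abundant in bone matrix and made by many stromal cells.

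The RefSeq promoter table (assembly GRCr8, a later build than the Rnor_6.0 named for the counts) holds 2 of these genes, Col1a2 and Sparc. Both promoters are shown for that reason alone, and not for any difference in expression. Each window runs 5′ to 3′ from 250 bases before to 50 bases after the annotated start of the gene, Col1a2 at chr4:33518307-33518606 on the plus strand and Sparc at chr10:40038767-40039066 on the minus strand. Capitals mark matches, on either strand, to the motifs searched, and overlapping matches run together. The motifs were TATAAA (the TATA box), the CCAAT box, the GC box core GGGCGG and the purine-rich run GGAGG.
Col1a2: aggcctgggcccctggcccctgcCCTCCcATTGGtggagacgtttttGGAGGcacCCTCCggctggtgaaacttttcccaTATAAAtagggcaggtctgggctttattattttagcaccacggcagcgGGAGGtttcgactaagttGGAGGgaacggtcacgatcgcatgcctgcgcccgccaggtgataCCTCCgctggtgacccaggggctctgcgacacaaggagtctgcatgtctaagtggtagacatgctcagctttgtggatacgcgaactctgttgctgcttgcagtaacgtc
Sparc: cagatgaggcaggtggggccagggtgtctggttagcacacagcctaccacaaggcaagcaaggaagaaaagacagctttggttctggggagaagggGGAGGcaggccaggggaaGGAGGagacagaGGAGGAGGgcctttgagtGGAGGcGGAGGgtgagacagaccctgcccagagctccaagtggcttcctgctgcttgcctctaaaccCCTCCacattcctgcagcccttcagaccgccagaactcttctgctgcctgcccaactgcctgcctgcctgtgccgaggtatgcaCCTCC
The Col1a2 window held 1 match to TATAAA, 170 bases before the annotated start, and 1 to CCAAT on the opposite strand, 221 bases before it. The Sparc window held neither. GGAGG matched 6 times in the Col1a2 window and 8 times in the Sparc window, where 2 matches overlapped, and GGGCGG matched in neither. Among 33469 promoters of the same length, 14.2% held the first motif, TATAAA, and 37.5% held CCAAT, while GGGCGG was in 33.1% and GGAGG in 71.1%. These are matches of letters and were not tested as binding sites.

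The 5 genes together took a large part of the sequenced RNA, and that part moved with the medium. They accounted for 11.2% ± 0.305 of the counted reads in Adi_ASA (SD, n = 3 here and for all means that follow), 12.9% ± 0.479 in Adi, 2.33% ± 0.124 in Ost_ASA, 1.87% ± 0.119 in Ost and 7.35% ± 0.0627 in Control. The ranges of the groups did not overlap: 11.1% to 11.6% in Adi_ASA, 12.4% to 13.4% in Adi, 2.22% to 2.46% in Ost_ASA, 1.74% to 1.97% in Ost and 7.28% to 7.39% in Control. The genes did not contribute equally to this total. Col1a1 alone took 6.48% to 6.82% in Adi, 0.125% to 0.148% in Ost and 3.69% to 3.73% in Control. Fn1 took 1.59% to 1.68% in Adi, 0.788% to 0.918% in Ost and 1.00% to 1.07% in Control. In bulk RNA, fewer cells of a type and less RNA per cell cannot be told apart. Libraries held 18373289 to 22817858 counted reads. Because the counts carry identifiers without symbols, markers of other cell types, also those that would check the labelled cells, and lists of related matrix genes were not analysed here.

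**Figure D1:**
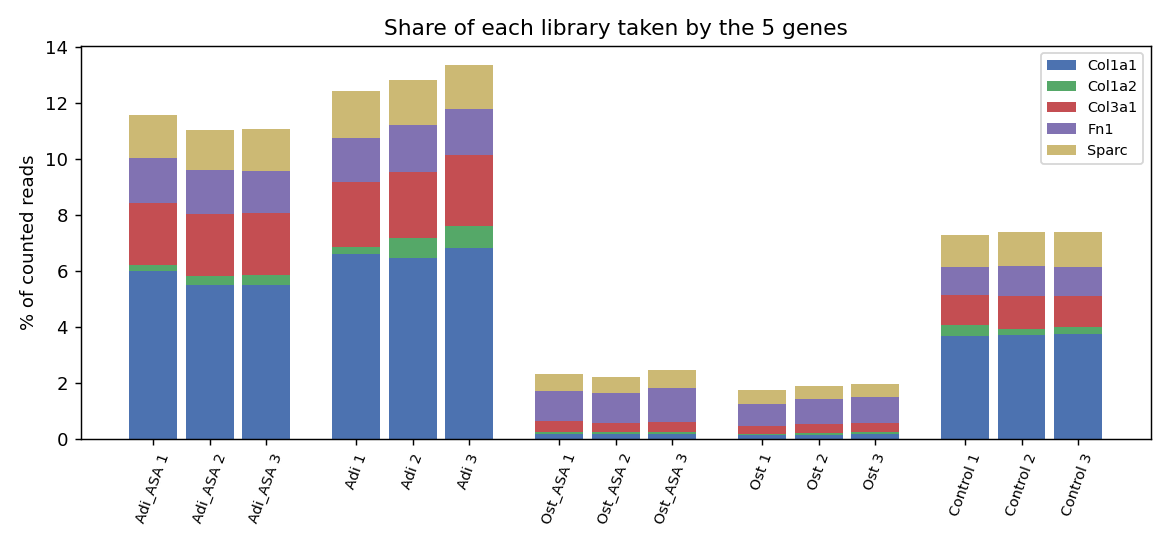
Share of counted reads (%, y axis) taken by each of the 5 genes, stacked, in every library (x axis, group and replicate number). The stacks reach 11.1% to 13.4% in the adipogenic libraries with and without aspirin, 1.74% to 2.46% in the osteogenic libraries and 7.28% to 7.39% in Control.

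Adipogenic medium was compared with untreated culture. All 5 genes were higher in Adi than in Control, between 1.55-fold and 2.45-fold, where 48.9% of the 15543 genes tested were called in either direction, 24.5% higher and 24.4% lower (edgeR quasi-likelihood test, adjusted p under 0.05). The median log2 fold change of the 5 was 1.03, against -0.01 over all genes tested. Levels below are CPM, read counts relative to library size after scaling of libraries by edgeR's TMM factors, and are compared between groups for 1 gene at a time, since they are not divided by transcript length.

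Col1a1, the alpha 1 chain of type I collagen, had 71018, 68597 and 74914 CPM in Adi replicates 1, 2 and 3, against 34850, 35238 and 34906 CPM in Control. Every Adi library lay above every Control library, as for 28.6% of all genes tested, and the Control libraries spread by only 0.599% of their mean (coefficient of variation). The log2 fold change was 1.03 (SE 0.08, edgeR adjusted p = 5.23e-10). Col3a1, the type III chain, had the larger change, with 24932, 25035 and 27573 CPM in Adi and 10013, 11207 and 10384 CPM in Control. The groups did not overlap, and the log2 fold change was 1.29 (SE 0.07, edgeR adjusted p = 3.40e-12). Fn1 had 17085, 17826 and 18191 CPM in Adi and 9449, 10217 and 9939 CPM in Control, a log2 fold change of 0.84 (SE 0.08, edgeR adjusted p = 8.41e-09). Sparc had 17942, 17112 and 17433 CPM in Adi and 10864, 11404 and 11615 CPM in Control, a log2 fold change of 0.63 (SE 0.06, edgeR adjusted p = 2.50e-08). For both of these glycoproteins the lowest Adi library exceeded the highest Control library.

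Col1a2, the alpha 2 chain of type I collagen, behaved differently from library to library. It had 2530, 7387 and 8779 CPM in Adi replicates 1, 2 and 3, against 3568, 2193 and 2379 CPM in Control. Adi replicate 1 lay within the range of Control, and Adi replicates 2 and 3 were far above it. The log2 fold change of 1.20 (SE 0.45) passed the test narrowly (edgeR adjusted p = 0.0495), and the call was lost under 8 of 13 alternatives. These included leaving out Adi replicate 2 (1.06, adjusted p = 0.124), Adi replicate 3 (0.87, adjusted p = 0.181), Control replicate 2 (1.07, adjusted p = 0.141) or Control replicate 3 (1.11, adjusted p = 0.131), all by edgeR.

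The size of the rise depended on the scaling of libraries. With library totals alone, in place of TMM factors, the median log2 fold change of all genes in Adi against Control was -0.20 and 2168 genes were called higher and 6316 lower, against 3810 and 3793 with TMM. On that scale the log2 fold changes were 0.84 for Col1a1, 1.10 for Col3a1, 0.65 for Fn1, 0.44 for Sparc and 1.01 for Col1a2, and all but Col1a2 passed the edgeR test (adjusted p = 0.0829 for Col1a2). Leaving the 5 genes out of the TMM scaling gave 1.04 for Col1a1 and 0.64 for Sparc.

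Ost cells were next set against the untreated cells. All 5 genes were lower in Ost than in Control, where 68.9% of the genes tested were called, 34.8% lower and 34.2% higher, and the fall was very unequal among them, 26.7-fold for Col1a1 and only 0.24 on the log2 scale for Fn1. The median log2 fold change of the 5 was -1.83, against -0.02 over all genes tested. Both media comparisons use the same Control libraries.

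Col1a1 had 1208, 1288 and 1443 CPM in Ost, against 34850, 35238 and 34906 CPM in Control. The 3 Ost libraries lay far below all Control libraries (36.6% of all genes tested had no overlap in this direction), and the log2 fold change was -4.74 (SE 0.09, edgeR adjusted p = 6.93e-21). Of the 15543 genes tested, 345 had a larger fall. Col3a1 had 2797, 3000 and 3076 CPM in Ost and 10013, 11207 and 10384 CPM in Control, a log2 fold change of -1.83 (SE 0.07, edgeR adjusted p = 1.20e-15). Col1a2 had 455, 714 and 1008 CPM in Ost and 3568, 2193 and 2379 CPM in Control. The Ost libraries of Col1a2 spread more than those of the other genes but all lay below Control, and the log2 fold change was -1.90 (SE 0.46, edgeR adjusted p = 0.00367).

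Sparc had 4734, 4682 and 4743 CPM in Ost and 10864, 11404 and 11615 CPM in Control, a log2 fold change of -1.26 (SE 0.06, edgeR adjusted p = 8.27e-14). The 3 Ost libraries of Sparc, a gene often used as a bone matrix marker, lay close together and well below Control. Fn1 had 7631, 8495 and 8941 CPM in Ost and 9449, 10217 and 9939 CPM in Control. Its groups did not overlap either, but the difference was small, with a log2 fold change of -0.24 (SE 0.08, edgeR adjusted p = 0.00763).

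**Figure D2:**
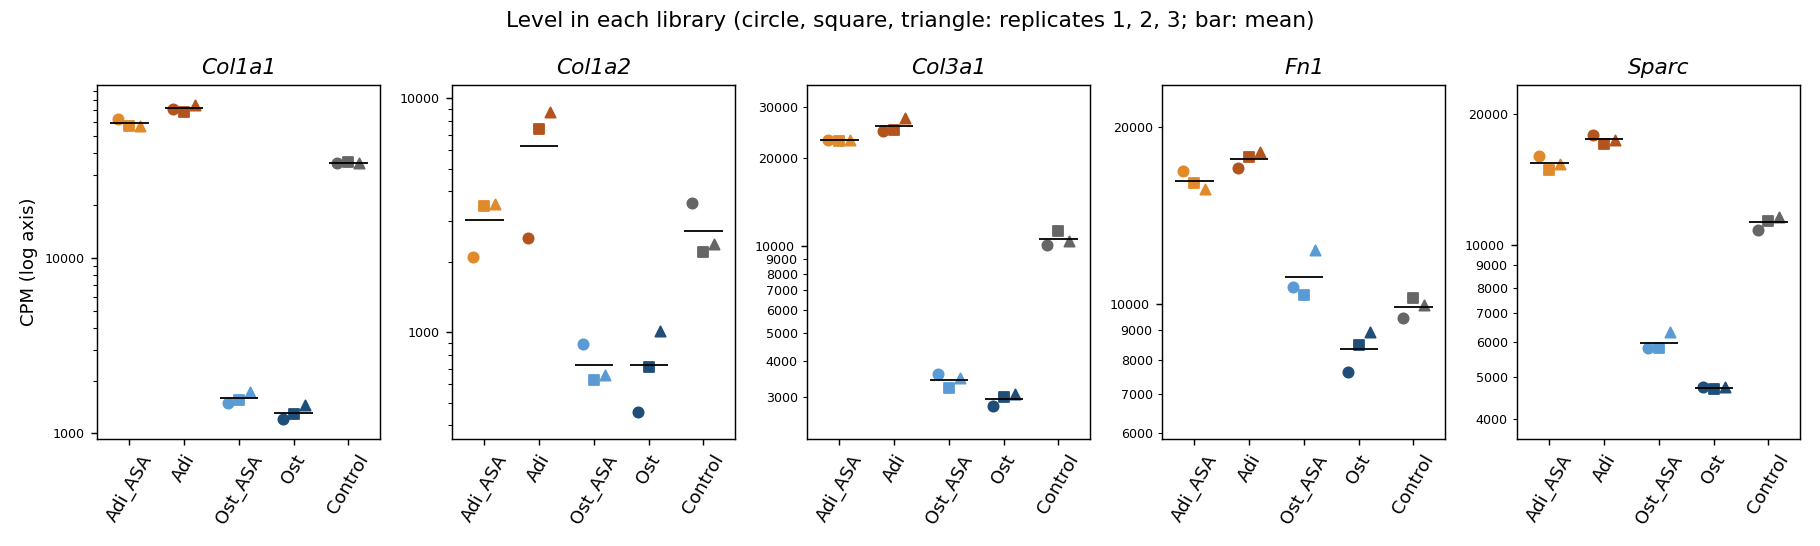
CPM of each gene (y axis, log scale, 1 panel a gene) in the 3 libraries of each group (x axis), with replicates 1, 2 and 3 as circle, square and triangle and the group mean as a bar. Col1a1, Col3a1 and Sparc form tight groups that are highest in Adi and lowest in Ost, while Col1a2 spreads from 2530 to 8779 CPM among the Adi libraries.

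The adipogenic and osteogenic media were compared directly, first without and then with aspirin, in pairs of groups that have no library in common. Without aspirin, all 5 genes were higher in Adi than in Ost, where 66.5% of genes tested were called, 33% higher and 33.5% lower. The fold difference was 54.5 for Col1a1, 8.74 for Col3a1, 8.59 for Col1a2, 3.71 for Sparc and 2.12 for Fn1, and the largest adjusted p was 0.000178, for Col1a2 (edgeR). Fibronectin therefore spanned the narrowest range between the media and the alpha 1 chain of type I collagen the widest. With aspirin in both media, all 5 were again higher in Adi_ASA than in Ost_ASA, where 65.7% of genes tested were called, 32.9% higher and 32.8% lower. The fold difference was then 36.9 for Col1a1, 6.71 for Col3a1, 4.19 for Col1a2, 2.58 for Sparc and 1.46 for Fn1 (edgeR adjusted p at most 0.0024, for Col1a2). With library totals alone the median of all genes in Adi against Ost was -0.15, with 4106 called higher and 6440 lower, against 5129 and 5207 with TMM, and all 5 genes passed there as well. Every Adi_ASA library lay above every Ost_ASA library for all 5 genes, as for 34.9% of all genes tested.

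The genes were next set against Col1a1 within each library, which gives a measure that no scaling of libraries can move. Transcript length is not divided out, so only differences of a ratio between groups are read. All these ratios share Col1a1 as denominator, of the 5 genes the one with the largest fall in Ost against Control (log2 fold change -4.74). Each ratio difference follows largely from the fold changes of the genes and is not separate support for them. For every 100 Col1a1 reads there were 637 ± 20.7 Fn1 reads in Ost and 28.2 ± 0.972 in Control. The ratio of Fn1 to Col1a1 thus differed 22.6-fold between the groups' geometric means. Sparc had 361 ± 31.6 reads for every 100 of Col1a1 in Ost and 32.3 ± 1.05 in Control, an 11.2-fold difference. Col3a1 had 213 to 233 in Ost and 28.7 to 31.8 in Control, a 7.51-fold difference. In each case the 3 Ost libraries lay apart from the 3 Control libraries. The share of all genes whose ratio to Col1a1 separates these groups was not computed. Of the 15543 genes tested only 345 had a larger fall than Col1a1, and the median log2 fold change was -0.02. A higher ratio to Col1a1 in Ost is therefore not particular to these genes.

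In Ost the chains of type I collagen did not keep the ratio seen in Control either, with the same denominator. Col1a2 had 37.7 to 69.9 reads for every 100 of Col1a1 in Ost and 6.22 to 10.2 in Control, and the groups did not overlap despite the spread of Col1a2 (6.95-fold). With aspirin in both media, Adi_ASA had 3.36 to 6.22 Col1a2 reads for every 100 of Col1a1 and Ost_ASA 38.1 to 59.4. Between Adi and Control this ratio was 3.56 to 11.7 in Adi and 6.22 to 10.2 in Control, which overlapped. Smaller shifts that separated the libraries were seen in adipogenic medium for the other genes: Col3a1 stood at 36.1 ± 0.905 in Adi and 30.1 ± 1.56 in Control, Sparc at 24.5 ± 1.07 in Adi and 32.3 ± 1.05 in Control, and Fn1 at 24.8 ± 1.05 in Adi and 28.2 ± 0.972 in Control. With aspirin the libraries separated by small amounts for Col3a1 (39.4 ± 1.93 in Adi_ASA and 36.1 ± 0.905 in Adi), Fn1 (27.6 ± 0.67 in Adi_ASA and 24.8 ± 1.05 in Adi) and Sparc (26.3 ± 0.645 in Adi_ASA and 24.5 ± 1.07 in Adi). In osteogenic medium they separated only for Fn1, at 698 ± 26.8 in Ost_ASA and 637 ± 20.7 in Ost. Each of these non-overlapping differences had p = 0.1 (exact permutation test, two-sided), the smallest value that 3 libraries against 3 allow, and 0.126 after adjustment over the 24 ratio tests made. For none of these ratios was the share of all genes that separate in the same way computed, so the separations are not read as a trait of these genes.

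**Figure D3:**
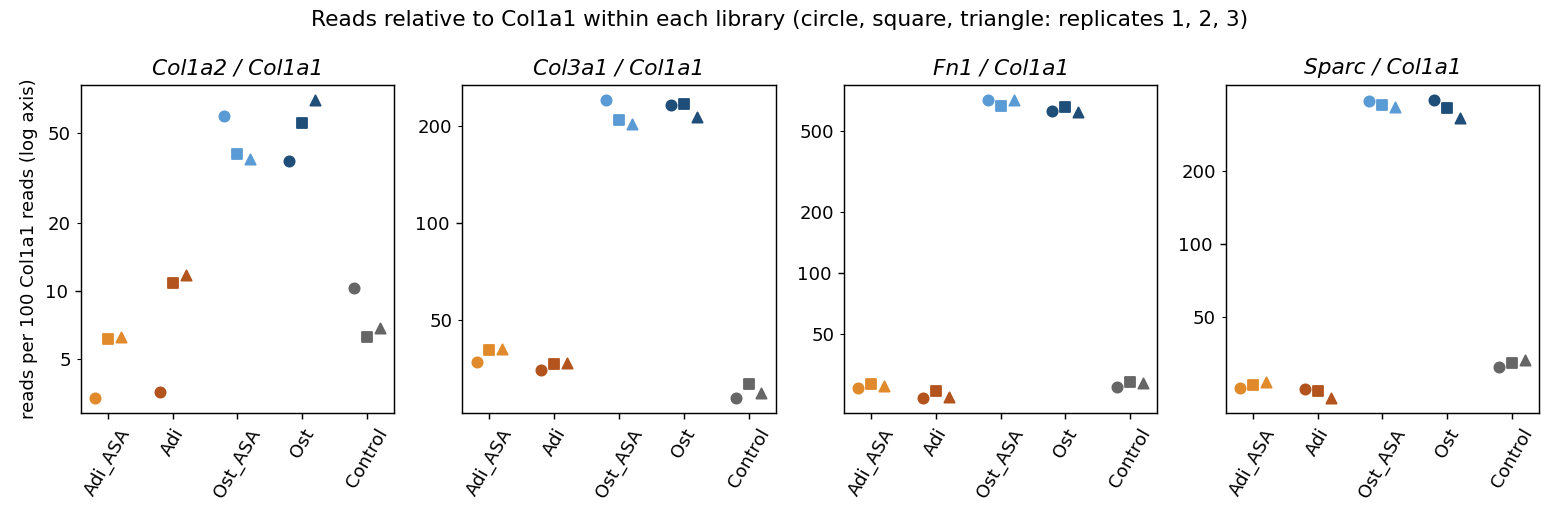
Reads of each gene for every 100 Col1a1 reads in the same library (y axis, log scale, 1 panel a gene), with replicates 1, 2 and 3 of each group (x axis) as circle, square and triangle. All osteogenic libraries lie above all adipogenic and Control libraries in every panel, with Fn1 at 620 to 715 in osteogenic and 24.1 to 29.0 in the other libraries. The panels share Col1a1 as denominator, so they are not independent of each other, and a higher ratio in osteogenic libraries is not particular to these genes.

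Aspirin was added to adipogenic medium to see how it acts on adipogenic culture. Of the 5 genes only Col1a1 passed the test, lower in Adi_ASA than in Adi, where 4.34% of genes tested were called, 1.85% lower and 2.49% higher. The other 4 also had negative log2 fold changes but did not pass. The median of the 5 was -0.18, against 0.00 over all genes tested. Over all genes, 387 were called higher and 288 lower with TMM factors, and 753 higher and 168 lower with library totals alone.

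Col1a1 had 62290, 56698 and 57063 CPM in Adi_ASA, against 71018, 68597 and 74914 CPM in Adi. The groups did not overlap, and the log2 fold change was -0.29 (SE 0.08, edgeR adjusted p = 0.0371). The call was lost under 6 of 13 alternatives: with library totals alone (-0.23, adjusted p = 0.0632), and without Adi replicate 1 (-0.29, adjusted p = 0.0798), Adi replicate 2 (-0.31, adjusted p = 0.0586), Adi replicate 3 (-0.25, adjusted p = 0.135), Adi_ASA replicate 2 (-0.26, adjusted p = 0.146) or Adi_ASA replicate 3 (-0.26, adjusted p = 0.163), all by edgeR. Sparc had 16004, 14915 and 15397 CPM in Adi_ASA and 17942, 17112 and 17433 CPM in Adi, a log2 fold change of -0.18 (SE 0.06, edgeR adjusted p = 0.107). Col3a1 had 23154, 22904 and 23188 CPM in Adi_ASA and 24932, 25035 and 27573 CPM in Adi, a log2 fold change of -0.16 (SE 0.07, edgeR adjusted p = 0.214). In both genes every Adi_ASA library lay below every Adi library, as in 11.4% of all genes tested, and the test was not passed in the fit of all groups. Both passed with DESeq2 (adjusted p = 0.000928 for Sparc and 0.0476 for Col3a1), which called 429 genes higher and 429 lower. Sparc also passed in edgeR fitted to these 2 groups alone (adjusted p = 0.0317).

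Fn1 had 16827, 16066 and 15690 CPM in Adi_ASA and 17085, 17826 and 18191 CPM in Adi, a log2 fold change of -0.13 (SE 0.08, edgeR adjusted p = 0.413). For Fn1 too, every Adi_ASA library lay below every Adi library, by a narrow margin. Col1a2 had the largest difference in size and the largest SE, with 2090, 3459 and 3549 CPM in Adi_ASA and 2530, 7387 and 8779 CPM in Adi (log2 fold change -1.04, SE 0.45, edgeR adjusted p = 0.273). Its groups overlapped through Adi replicate 1. Against Control, a comparison added after seeing the data, all but Col1a2 were higher in Adi_ASA, with log2 fold changes of 0.75 for Col1a1, 1.13 for Col3a1, 0.71 for Fn1 and 0.45 for Sparc (edgeR adjusted p at most 3.41e-06, where 44.4% of genes were called, 22.5% higher and 21.9% lower). Col1a2 was at 0.16 (SE 0.45, edgeR adjusted p = 0.805).

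Aspirin was likewise added to osteogenic medium. Fn1, Sparc and Col1a1 were higher in Ost_ASA than in Ost, where 3.63% of genes tested were called, 2.34% higher and 1.29% lower, and Col3a1 and Col1a2 did not pass the test. The median log2 fold change of the 5 was 0.28, against 0.00 over all genes tested.

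Fn1 had 10664, 10347 and 12345 CPM in Ost_ASA, against 7631, 8495 and 8941 CPM in Ost. The groups did not overlap, as in this direction for 10.5% of all genes tested, and the log2 fold change of 0.41 (SE 0.08, edgeR adjusted p = 0.00236) was the largest of the 5. Sparc had 5829, 5811 and 6325 CPM in Ost_ASA and 4734, 4682 and 4743 CPM in Ost, a log2 fold change of 0.34 (SE 0.06, edgeR adjusted p = 0.00183). Both calls held under all 13 alternatives run.

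Col1a1 had 1498, 1551 and 1727 CPM in Ost_ASA and 1208, 1288 and 1443 CPM in Ost, a log2 fold change of 0.28 (SE 0.08, edgeR adjusted p = 0.0464). All Ost_ASA libraries lay above all Ost libraries, but the margin was narrow and the call was lost under 7 of 13 alternatives. These were the fit without a filter on low counts (0.27, adjusted p = 0.061), the fit of these 2 groups alone (0.27, adjusted p = 0.0772), the fit with replicate numbers as a block (0.28, adjusted p = 0.0524), and the fits without Ost replicate 1 (0.22, adjusted p = 0.206), Ost replicate 2 (0.26, adjusted p = 0.172), Ost_ASA replicate 2 (0.295, adjusted p = 0.0723) or Ost_ASA replicate 3 (0.21, adjusted p = 0.227), all by edgeR. Col3a1 had 3598, 3231 and 3496 CPM in Ost_ASA and 2797, 3000 and 3076 CPM in Ost, again with no overlap (log2 fold change 0.22, SE 0.07, edgeR adjusted p = 0.0881, and 0.00617 with DESeq2). Over all genes, DESeq2 called 477 higher and 258 lower here. Col1a2 had 890, 625 and 657 CPM in Ost_ASA and 455, 714 and 1008 CPM in Ost, which overlapped, and its log2 fold change was -0.00 with an SE of 0.45.

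**Figure D4:**
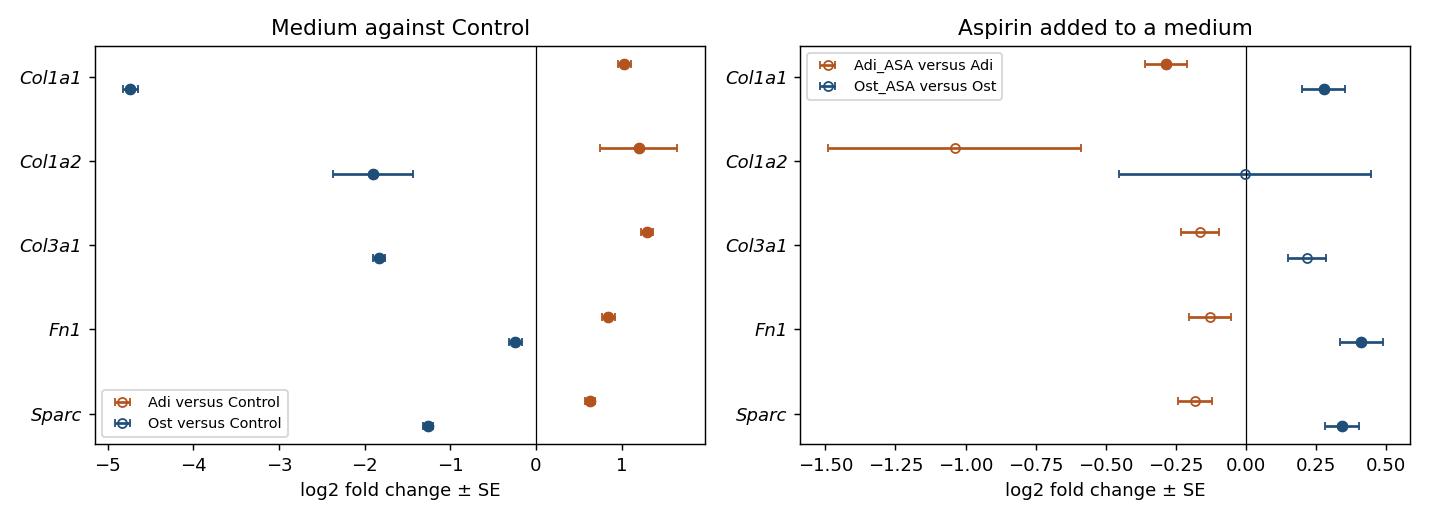
Log2 fold change ± SE (x axis) of each gene (y axis) from the edgeR fit, for each medium against Control (left) and for aspirin added to each medium (right, on a narrower scale); filled points passed at an adjusted p under 0.05. Against Control the genes lie between 0.63 and 1.29 in adipogenic medium and between -4.74 and -0.24 in osteogenic medium, and with aspirin Col1a1, Col3a1, Fn1 and Sparc lie below 0 in adipogenic and above 0 in osteogenic medium.

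The aspirin effects in the 2 media, which use separate libraries, were then tested against each other as an interaction. For 4 of the 5 genes the effect in adipogenic medium was lower than that in osteogenic medium, where 2.83% of genes tested were called, 1.63% lower in this sense and 1.2% higher. The difference on the log2 scale was -0.56 for Col1a1 (SE 0.11, edgeR adjusted p = 0.00444), -0.54 for Fn1 (SE 0.11, edgeR adjusted p = 0.00552), -0.52 for Sparc (SE 0.09, edgeR adjusted p = 0.00127) and -0.38 for Col3a1 (SE 0.10, edgeR adjusted p = 0.0325). For Col1a2 it was -1.04 with an SE of 0.64 (edgeR adjusted p = 0.551). The calls of Col1a1, Fn1 and Sparc held under all 19 alternatives run.

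That of Col3a1 was lost under 9 of them, with library totals alone (-0.30, adjusted p = 0.0696) and without any one of 8 libraries. These were Adi replicate 3 (adjusted p = 0.0876), Adi_ASA replicates 1, 2 and 3 (0.069, 0.0863 and 0.0796), Ost replicates 1 and 2 (0.0813 and 0.06745) and Ost_ASA replicates 1 and 3 (0.094 and 0.0613), all adjusted p by edgeR. Over all genes, library totals alone changed the balance of this comparison to 402 higher and 184 lower, against 186 and 254 with TMM factors, and the direction of the 5 genes was the same on both scales.

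The order of mean levels was Ost, Ost_ASA, Control, Adi_ASA and Adi, low to high, for Col1a1, Col3a1 and Sparc. Each step of that order separated all libraries for these 3 genes, as it did for 0.238% of all genes tested, a share that was computed after seeing the order. However, the steps made by aspirin passed the test only for Col1a1 in both media and for Sparc in osteogenic medium. For Fn1 the order was Ost, Control, Ost_ASA, Adi_ASA and Adi. Ost_ASA lay above Control by a log2 fold change of 0.17 (SE 0.08, edgeR adjusted p = 0.0476, where 69.3% of genes were called, 34.5% higher and 34.8% lower), a comparison added after seeing the data. The other 4 genes were lower in Ost_ASA than in Control, with log2 fold changes of -4.46 for Col1a1, -1.61 for Col3a1, -1.91 for Col1a2 and -0.92 for Sparc (largest edgeR adjusted p = 0.00363, for Col1a2). The call of Fn1 was lost under 7 of 13 alternatives, including the fits without Control replicate 1 (0.14, adjusted p = 0.141), Control replicate 3 (0.18, adjusted p = 0.0853) or Ost_ASA replicate 3 (0.09, adjusted p = 0.285). For Col1a2 the means of 724 ± 144 CPM in Ost_ASA and 726 ± 277 CPM in Ost could not be ordered, and neither could Adi_ASA at 3033 ± 818 CPM and Control at 2713 ± 746 CPM.

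The spread between replicates set Col1a2 apart from the other genes. Its SD within groups was 0.58 on the log2 CPM scale (10 residual degrees of freedom), against 0.09 for Col1a1, 0.07 for Col3a1, 0.09 for Fn1 and 0.05 for Sparc. Among the 200 rows with the highest mean log2 CPM it ranked 1, the next row had 0.31 and the median was 0.08. Its counts ran from 10590 to 164807 reads per library. Adi replicate 1 lay 1.11 below its group mean on the log2 scale, and the same library deviated by -0.01 for Col1a1, -0.05 for Col3a1, -0.05 for Fn1 and 0.04 for Sparc. The sources used here do not say how counting treated overlapping or similar sequences, and the source of the spread was not tested.

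**Figure D5:**
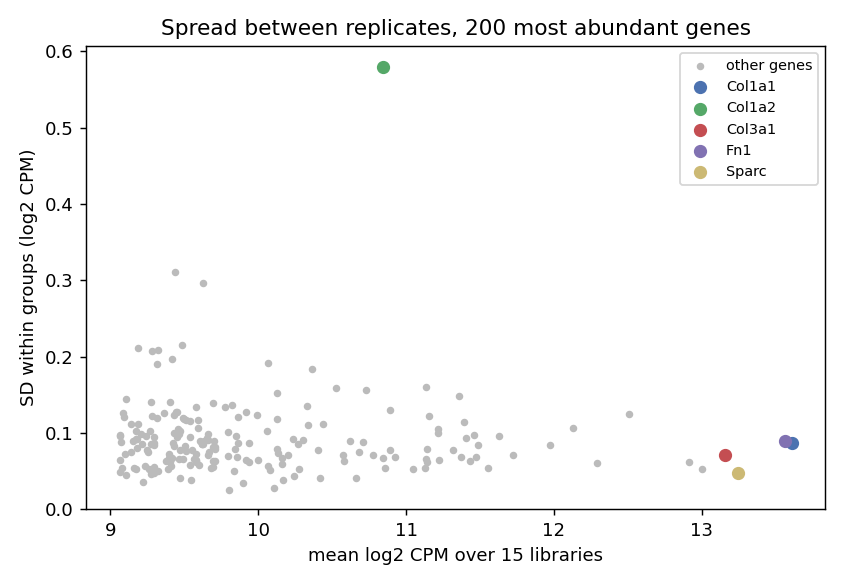
SD of log2 CPM within groups (y axis) against mean log2 CPM over 15 libraries (x axis) for the 200 rows with the highest mean, with the 5 genes coloured. Col1a2 stands at 0.58, above the next row at 0.31, while the other 4 genes lie between 0.05 and 0.09.

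For each gene the row with the most similar pattern was found by Pearson's r of log2 CPM over the 15 libraries, which fall into separate clusters by medium, so r spans those clusters. The nearest row to Col3a1 was ENSRNOG00000002052 (r = 0.999), with 9502 ± 251 CPM in Adi_ASA, 9853 ± 440 CPM in Adi, 568 ± 23.2 CPM in Ost_ASA, 497 ± 33.9 CPM in Ost and 2985 ± 108 CPM in Control. The nearest to Col1a1 was ENSRNOG00000016831 (r = 0.998), to Sparc ENSRNOG00000003172 (r = 0.997) and to Fn1 ENSRNOG00000004279 (r = 0.983). ENSRNOG00000016831 had 2894 ± 118 CPM in Adi and 773 ± 17.4 CPM in Ost, a much smaller range than Col1a1 has, since r measures shape and not size. For Col1a2 the highest r was 0.949. The files and reference tables do not pair these identifiers with symbols.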

How the data were processed

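The data were read counts per gene from RNA sequencing of 15 libraries in 5 groups, deposited by the authors as 1 table of raw counts, not normalised. Per the submitters' processing notes, the build was Rnor_6.0 and the tools named were DESeq 1.18.0, HTSeq 0.9.1 and HISAT2 2.0.4. Roles, annotation release and strand setting are not stated in any source used, so reads of overlapping or near-identical genes are uncertain. Column names gave the group and replicate number. The table had 34480 rows, 32883 of them with an Ensembl rat identifier; 0 could be paired with a symbol through the reference table, so the symbols of the 5 genes are those given with their identifiers, and the planned lists of related genes and cell type markers could not be used.

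The count test was edgeR's (4.0.16, R 4.3.3): filterByExpr (15543 rows, 99.94% to 99.96% of reads), TMM scaling, 1 quasi-likelihood model of 5 group means and Benjamini-Hochberg adjustment over all rows kept, at 0.05. SE is the size of the log2 fold change divided by the square root of F. Ratios were log2 of counts plus 1. Alternatives were RLE factors, library totals, scaling without the 5 genes, no filter, DESeq2 1.42.0, only the groups compared, a replicate block, each replicate left out, and a pseudocount of 0.5. Chi-square over degrees of freedom between replicates was 5.41 to 13.5, above counting noise, so no library was counted as a copy. The genes, lists and tests were chosen with earlier results of these data known. The genes named were the 5 in every comparison and, as the nearest pattern, 1 row for each of the 4 genes with the highest r. The comparisons of aspirin-treated cells with Control and the deviations of Col1a2 were added after seeing the data.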

Additional observations from a re-analysis of the deposited data

Results flagged for a closer look

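Effects of aspirin that differed between the media, by the interaction test described above, were found for 4 of the 5 genes, where 2.83% of all genes tested were called and 1.63% in this direction. The difference, adipogenic minus osteogenic, was -0.56 for Col1a1, -0.38 for Col3a1, -0.54 for Fn1 and -0.52 for Sparc on the log2 scale. The call of Col3a1 was lost under 9 of 19 alternatives. For Col3a1 neither aspirin effect passed the edgeR test on its own (adjusted p = 0.214 in adipogenic and 0.0881 in osteogenic medium). Fn1 and Sparc passed only in osteogenic medium (edgeR adjusted p = 0.413 for Fn1 and 0.107 for Sparc in adipogenic medium). Col1a1 passed in both media, but its call was lost under 6 of 13 alternatives in adipogenic and 7 of 13 in osteogenic medium.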

How the results depend on the processing

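Under the alternatives run, all 5 genes passed in Ost against Control, Adi against Ost and Adi_ASA against Ost_ASA, and 4 or 5 passed in Adi against Control, where Col1a2 was the gene lost. The main fit called 68.9%, 66.5%, 65.7% and 48.9% of all genes in these comparisons, in the same order. In Adi_ASA against Adi 1 gene passed (4.34% of all genes called), with 0 under library totals (edgeR; 2 at an unadjusted p under 0.05; 5.93% of all genes), 3 under DESeq2 (6.55%), 2 with only the groups compared (5.46%), and 0 to 1 with 1 replicate of these groups left out (1.79% to 3.33%). In Ost_ASA against Ost it was 2 to 4, and 3 or 4 in the interaction. For Ost_ASA against Ost the main fit called 363 of all genes higher and 201 lower, and 3 of the 5 genes passed. DESeq2 gave 477 and 258, with 4 passing, and the fit without Ost replicate 1 gave 209 and 126, with 2 passing. For the interaction the main fit gave 186 and 254, with 4 passing, and library totals gave 402 and 184, with 3 passing. With replicate numbers as a block the calls lost were Col1a2 in Adi against Control (1.08, edgeR adjusted p = 0.0941), Col1a1 in Ost_ASA against Ost (0.28, adjusted p = 0.0524) and Fn1 in Ost_ASA against Control (0.17, adjusted p = 0.0500058); same-numbered libraries did not deviate together (correlations -0.07 to 0.04 over 30 pairs), so the numbers were not taken as pairs. Signs turned only for values near 0: Col1a2 in Ost_ASA against Ost was 0.081 with the block and -0.25 to 0.31 with 1 replicate left out, and the log2 ratios to Col1a1 were -0.29 to 0.57 for Col1a2 in Adi against Control (0.02 with all libraries) and -0.0035 to 0.12 for Sparc in Ost_ASA against Ost (0.06). The causes were not tested. The pseudocount changed no direction of a ratio. With 3 libraries a group, the spread of Col1a2 limits its comparisons.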

Other observations

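The deviations of Col1a2 from its group means, taken over all 15 libraries after seeing its spread, were compared with those of every other row as a description. Of 15542 rows, 1 had a correlation with them above 0.9 and 1 below -0.9. Among the other matrix genes the correlation was 0.14 for Col1a1, 0.39 for Col3a1, 0.23 for Fn1 and -0.52 for Sparc. Over all libraries together, Col1a2 therefore varied without Col1a1, its partner chain in type I collagen, varying in the same way. Groups differed in this. In Ost replicates 1, 2 and 3 the deviations had the same order, -0.60, 0.05 and 0.55 for Col1a2 and -0.12, -0.02 and 0.14 for Col1a1. In replicate 1 of Adi_ASA and Ost_ASA their signs were opposite, -0.50 and 0.32 for Col1a2 and 0.09 and -0.08 for Col1a1. In Control replicate 1 Col1a2 deviated by 0.43 and Col1a1 by only -0.006.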
